A study of Mus musculus with 2 samples.

Results

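The heat shock proteins of the cytosol and the mitochondrion were followed through 10 genes, Hspa1a, Hspa1b, Hspa8, Hsp90aa1, Hsp90ab1, Hsph1, Dnajb1, Hspe1, Hspd1 and Hspb1, out of 32285 genes in the count tables. They were matched by gene symbol, as a set chosen with earlier results of these data known, and all 10 had counts in both libraries. The series compared brain cortex of Fam69c knockout mice (KO) with cortex of Fam69c wild-type mice (WT), all males aged 4 months, with no other treatment or allele named in the labels. Cortices were pooled by genotype, dissociated to single cells with heating, stained with the viability dye 7-AAD and sorted, and 1 droplet library per genotype was made with a chemistry that reads the 3′ ends of transcripts. The labels name 7 mice without saying whether that is the number per genotype, and they do not say which part of the gene was removed or in which cells. With 1 pooled library per genotype there was no replicate and no test, so a difference between the KO and WT libraries cannot be told apart from a difference between 2 preparations.

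Heat shock proteins are chaperones: they bind unfolded or newly made proteins and help them fold, cross membranes or be handed on for degradation. HSP70 proteins hold unfolded stretches in cycles driven by ATP, J-domain partners deliver the client, exchange factors reset the cycle, and HSP90 proteins then mature kinases and receptors. In mitochondria, HSP60 rings capped by HSP10 fold imported proteins, and small heat shock proteins such as HSPB1 hold clients without ATP. On heat or proteotoxic stress the transcription factor HSF1 binds inverted GAA units in front of many of these genes, and tissue dissociation is itself known to induce some of them.

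Cells were assigned to types by a gate on marker genes, and levels are unique molecular identifiers (UMIs) of a gene per 1000000 UMIs of the gated cells (CPM), with exact Poisson 95% intervals. As 3′ libraries are meant to count each molecule once, levels of different genes are compared without a correction for length. KO/WT ratios did move with transcript length, as given below. The KO library held 9182 barcodes and 75473717 UMIs, and the WT library 7150 barcodes and 57166105 UMIs, with 17 barcode sequences in both. After filters, 6663 of 7480 KO cells (89.1%) and 3817 of 5152 WT cells (74.1%) passed a gate. The gates held 4337 KO and 2093 WT astrocytes, 802 KO and 581 WT oligodendrocytes, 298 KO and 243 WT microglia, 252 KO and 141 WT endothelial cells and 394 KO and 196 WT neuroblasts. Ependymal cells, pericytes, fibroblasts and 6 blood lineages had between 18 and 268 cells per library, and 5 further gates had under 15 cells in a library and are not given. The fibroblast gate was led by Mgp, Ccn3, Igfbp6 and Penk with 1 of its own markers among its leading 10 genes, so its name is weakly held. The targeted gene, listed as Dipk1c, stood at 20.5 CPM over all KO cells and 32.5 CPM over all WT cells, and at 33.6 CPM in KO astrocytes and 60.1 CPM in WT astrocytes. As the removed part is not stated, these 3′ counts do not check the genotype. Within the astrocyte gate the libraries filled different clusters, which were made without the heat shock genes. Cluster 0 held 43.9% of KO and 13.9% of WT astrocytes, cluster 1 held 20% of KO and 54.9% of WT, and cluster 5 held 13.3% of KO and 3.82% of WT. Clusters 3 and 4 held like shares of both. A cluster mostly of 1 library may be that library rather than a kind of astrocyte. Median UMIs per cell were lower in the KO library in each of the 5 large gates, for example 8985 in KO astrocytes against 12185 in WT astrocytes. Markers of other types took 0.167% of UMIs in KO astrocytes and 0.196% in WT astrocytes, and hemoglobin genes 0.145% in KO and 0.250% in WT; their part in the results was not tested.

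The promoters are shown because HSF1 acts through them and because pairs of members share them in part. RefSeq windows on GRCm38.p6, 250 bases before to 50 after a start, were at hand for 7 members: Hspa1a, Hspa1b, Hsph1, Hspe1, Hspd1, Dnajb1 and Hspb1. Capitals mark a pair of inverted units, GAANNTTC or TTCNNGAA, which reads the same on both strands, and adjoining pairs share units.
Hspa1a (chr17:34972107-34972406, minus strand): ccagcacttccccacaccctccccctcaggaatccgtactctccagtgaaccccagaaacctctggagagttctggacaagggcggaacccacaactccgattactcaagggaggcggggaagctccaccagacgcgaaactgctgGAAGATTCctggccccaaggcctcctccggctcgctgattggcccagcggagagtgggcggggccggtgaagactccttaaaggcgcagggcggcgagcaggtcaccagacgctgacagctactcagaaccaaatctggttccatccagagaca
Hspa1b (chr17:34959189-34959488, minus strand): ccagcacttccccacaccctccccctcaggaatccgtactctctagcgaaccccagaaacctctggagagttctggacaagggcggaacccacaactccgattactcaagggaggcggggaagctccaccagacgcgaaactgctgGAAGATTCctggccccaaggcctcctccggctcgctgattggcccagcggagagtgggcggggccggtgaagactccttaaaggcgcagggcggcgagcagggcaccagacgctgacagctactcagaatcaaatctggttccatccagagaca
Hspe1 (chr1:55087898-55088197, plus strand): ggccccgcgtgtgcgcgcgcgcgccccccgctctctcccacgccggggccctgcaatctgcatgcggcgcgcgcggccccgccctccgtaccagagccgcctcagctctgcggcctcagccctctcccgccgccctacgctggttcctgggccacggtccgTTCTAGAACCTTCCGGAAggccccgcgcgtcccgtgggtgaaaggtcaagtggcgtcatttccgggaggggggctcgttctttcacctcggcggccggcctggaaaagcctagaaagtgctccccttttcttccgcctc
Hsph1 (chr5:149636287-149636586, minus strand): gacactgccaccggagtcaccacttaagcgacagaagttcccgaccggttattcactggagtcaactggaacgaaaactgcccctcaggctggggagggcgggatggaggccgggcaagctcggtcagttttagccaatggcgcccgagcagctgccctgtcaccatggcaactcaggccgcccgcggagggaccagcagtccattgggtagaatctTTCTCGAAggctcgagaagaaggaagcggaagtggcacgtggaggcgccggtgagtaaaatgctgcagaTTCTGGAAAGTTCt
Hspb1 (chr5:135887669-135887968, plus strand): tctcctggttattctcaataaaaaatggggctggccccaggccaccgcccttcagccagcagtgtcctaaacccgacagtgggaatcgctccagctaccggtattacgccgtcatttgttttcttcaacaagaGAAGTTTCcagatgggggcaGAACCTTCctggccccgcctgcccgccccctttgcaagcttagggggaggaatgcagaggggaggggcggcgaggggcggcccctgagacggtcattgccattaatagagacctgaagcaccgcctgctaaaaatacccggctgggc
At least 1 pair lay in a window of 6 of the 7 members, Dnajb1 being the one without, while 15.1% of 32851 mouse windows and 17% of 27025 genes held one. Runs of 3 units, GAANNTTCNNGAA or TTCNNGAANNTTC, lay in windows of Hspe1, Hspd1 and Hsph1, against 0.603% of windows and 0.662% of genes. The Hspa1a and Hspa1b windows differed at 4 of 300 bases, with 1 pair each, beginning 104 bases before the start. Hspe1 and Hspd1 stand head to head on chromosome 1, and the Hspe1 window shared 285 bases, with the run of units, with 1 of 2 windows of Hspd1. The other Hspd1 window, at the annotated 5′ end of the gene, shared 4 bases with the Hspe1 window and held no pair. In the Hsph1 window the run of 3 units lay just after the start, inside the transcribed part. A match of letters is a description and not a binding site.

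The members spanned a wide range of levels and differed in which cell types held most of them. In the astrocyte gate, which held most cells, Hspa8 was at 1013 CPM in KO and 866 CPM in WT, Hsp90ab1 at 765 CPM in KO and 585 CPM in WT, Hspe1 at 313 CPM in KO and 233 CPM in WT, and Hsp90aa1 at 272 CPM in KO and 225 CPM in WT. Hspd1, Hsph1, Dnajb1, Hspa1b, Hspa1a and Hspb1 followed, down to 1.61 CPM in KO and 1.52 CPM in WT for Hspb1. Summed over the 10 genes, ependymal cells held the most, with 20376 CPM in KO and 19029 CPM in WT. Neutrophils held the least, with 633 CPM in KO and 623 CPM in WT. Oligodendrocytes (8076 CPM in KO, 8192 CPM in WT) and neuroblasts (6854 CPM in KO, 5949 CPM in WT) stood above astrocytes (2546 CPM in KO, 2096 CPM in WT). For this sum, the types differed far more than the libraries did within a type.

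**Figure D1:**
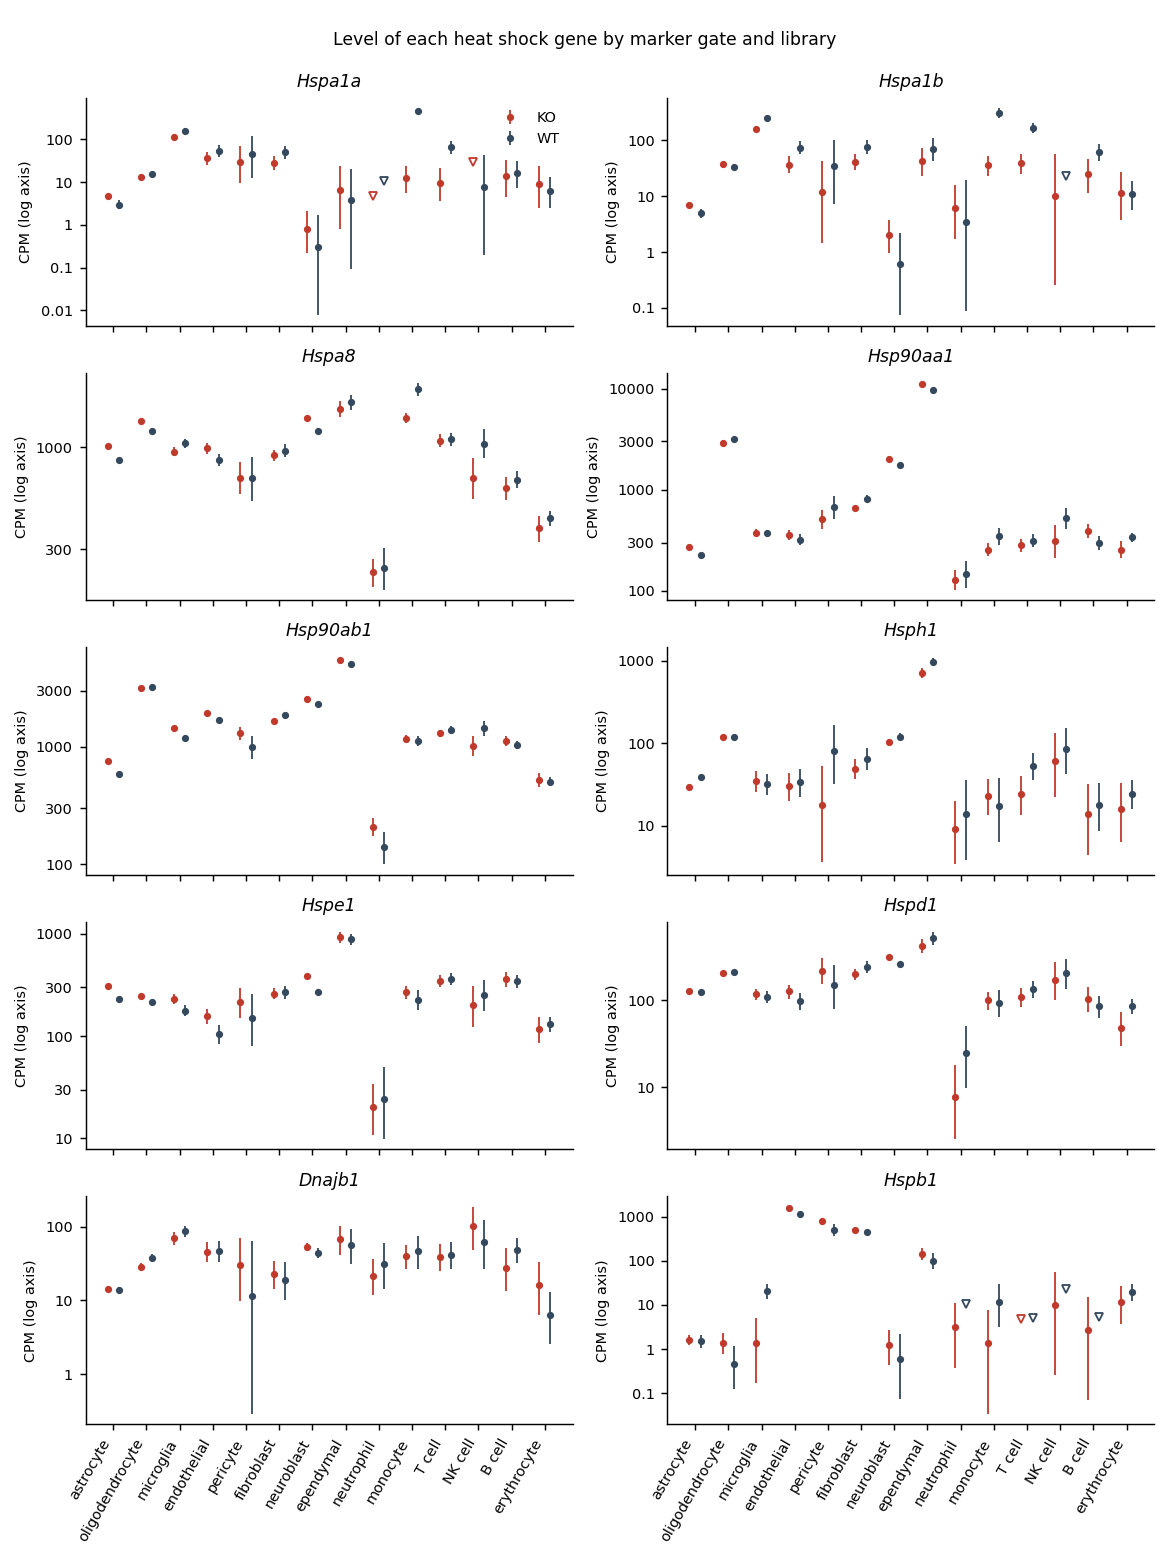
Level of each of the 10 heat shock genes in CPM (log axis) in 14 marker gates, KO left in red and WT right in dark grey-blue, with exact Poisson 95% intervals; open triangles mark a count of 0, drawn at the level of 3 UMIs. Hsp90aa1 peaks in ependymal cells, Hspb1 in endothelial cells, and the 2 libraries lie close together for most genes and gates.

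Hspa1a and Hspa1b encode the inducible cytosolic HSP70 and lie side by side at chr17:34969190-34972156 and chr17:34956436-34959238 (mm10, minus strand, both protein-coding). Their coding parts matched at 99.5% of bases with 10 differences, while their 3′ untranslated parts matched at 51.4%. No source used here says how reads matching both were counted, so their sum is given as well. Both were highest in microglia among the 5 large gates, Hspa1a at 112 CPM in KO and 160 CPM in WT, and Hspa1b at 162 CPM in KO and 248 CPM in WT. Neuroblasts were at the bottom with 4 KO and 1 WT UMIs of Hspa1a and 10 KO and 2 WT UMIs of Hspa1b. Oligodendrocytes had 13.4 CPM of Hspa1a in KO and 15.2 CPM in WT, and 37.5 CPM of Hspa1b in KO and 33.5 CPM in WT. Hspa1a made up a smaller part of the pair in oligodendrocytes (26.3% in KO, 31.3% in WT) than in microglia (40.9% in KO, 39.3% in WT). The exact binomial 95% intervals were apart in KO (22.5% to 30.4% in oligodendrocytes, 35.9% to 45.9% in microglia) and overlapped in WT (26.9% to 35.9% in oligodendrocytes, 35.3% to 43.3% in microglia).

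The pair's molecules sat in few cells. The 5% of microglia with the most held 68.4% of the pair's UMIs in KO (15 cells) and 55.1% in WT (13 cells), against 20.5% in KO and 21.6% in WT for Hspa8. In oligodendrocytes the same share of cells held 43.8% of the pair's UMIs in KO and 42.6% in WT. Poisson intervals take molecules as independent, so they are too narrow where a few cells hold most of a count. At least 1 UMI of either gene was seen in 21.5% of KO and 31.7% of WT microglia, 29.6% of KO and 33.7% of WT oligodendrocytes, 9.92% of KO and 17.7% of WT endothelial cells, 7.82% of KO and 7.74% of WT astrocytes, and 1.27% of KO and 1.53% of WT neuroblasts. These shares move with depth. After each cell was thinned to 2000 UMIs, leaving out shallower cells (77 KO and 52 WT microglia), Hspa1a was seen in 9.05% of KO and 13.1% of WT microglia, with intervals of 5.62% to 13.6% in KO and 8.65% to 18.7% in WT that overlap. Thinned astrocytes showed it in 0.885% of KO cells (271 left out) and 0.863% of WT cells (124 left out).

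Cells with one gene of the pair more often had the other. Among microglia with an Hspa1a UMI, 56.2% in KO and 59.2% in WT also had an Hspa1b UMI, while other microglia had one in 12.0% of KO and 14.4% of WT cells. The same held in oligodendrocytes, with 53.0% in KO and 48.7% in WT against 19.5% in KO and 23.5% in WT among the other cells. Endothelial cells gave 42.1% in KO and 61.1% in WT, against 2.58% in KO and 5.69% in WT. Deeper cells have more of every gene, and reads matching both genes could add to this, whose parts were not tested. Oligodendrocytes with a UMI of the pair also had more Hsph1, at 158 CPM in KO and 149 CPM in WT, than those without, at 100 CPM in KO and 99.6 CPM in WT. Their Hsp90aa1 was at 3372 CPM in KO and 3685 CPM in WT, against 2622 CPM in KO and 2820 CPM in WT without. Dnajb1 was at 27.0 CPM with and 29.5 CPM without the pair in KO oligodendrocytes, and at 49.1 CPM with and 31.5 CPM without it in WT oligodendrocytes, a contrast that was not tested. Microglia with the pair had more Hspa8, at 1336 CPM in KO and 1196 CPM in WT, than those without, at 829 CPM in KO and 971 CPM in WT. They had less of a summed list of 14 immediate early genes, at 15586 CPM in KO and 19579 CPM in WT against 22943 CPM in KO and 27145 CPM in WT. Endothelial cells with the pair had more of that list, 3271 CPM in KO and 3837 CPM in WT. Those without it had 2327 CPM in KO and 2131 CPM in WT. Astrocytes with the pair also had more, 528 CPM in KO and 581 CPM in WT. Those without had 456 CPM in KO and 452 CPM in WT. Oligodendrocytes were mixed, with 1140 CPM with and 1188 CPM without the pair in KO. In WT they had 1320 CPM with and 1072 CPM without it.

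**Figure D2:**
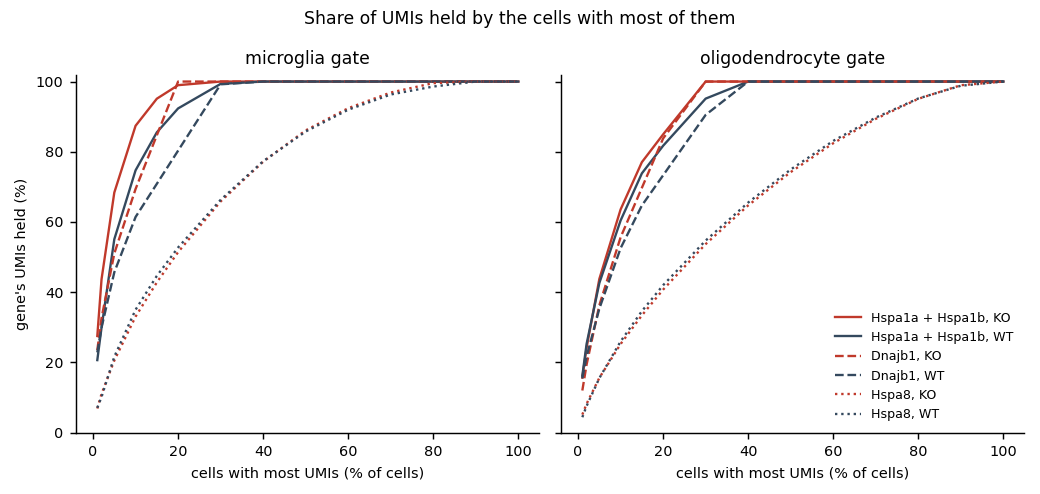
Percent of a gene's UMIs (vertical axis) held by the percent of cells with most of them (horizontal axis) in the microglia and oligodendrocyte gates, KO in red and WT in dark grey-blue. The inducible pair (solid) and Dnajb1 (dashed) climb steeply, so that 10% of KO microglia hold 87.4% of the pair's UMIs, while Hspa8 (dotted) is spread over most cells.

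Between the libraries the inducible pair was lower in KO in several types and higher in KO astrocytes. The summed pair stood at 275 CPM in KO and 408 CPM in WT microglia, a KO/WT ratio of 0.674 (exact conditional binomial 95% interval 0.592 to 0.767, counting error only). It was 72.8 CPM in KO and 129 CPM in WT endothelial cells, a ratio of 0.565 (0.410 to 0.774). In astrocytes it was 11.6 CPM in KO and 8.02 CPM in WT, a ratio of 1.45 (1.22 to 1.72), and in oligodendrocytes 51.0 CPM in KO and 48.7 CPM in WT, a ratio of 1.05 (0.918 to 1.19). Over the 14 gates with enough cells the KO level was the lower one in 8, in 6 of them with an interval below 1, and the higher one in 6, in 1 of them (astrocytes) with an interval above 1. These intervals take UMIs as independent and are too narrow where few cells hold the pair, so the tally is a description only. The widest gap was in monocytes, with 35 UMIs in 49 KO cells (47.9 CPM) and 264 UMIs in 20 WT cells (768 CPM). A single WT monocyte held 95 of those UMIs, and without the top cell of each library the levels were 30.9 CPM in KO and 569 CPM in WT. T cells followed with 48.7 CPM in KO and 235 CPM in WT, and 19.8 CPM in KO and 147 CPM in WT without the top cells.

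By gene, Hspa1a in astrocytes had 176 KO UMIs and 73 WT UMIs, a ratio of 1.55 (1.18 to 2.07) that shrank to a log2 ratio of 0.08, against 0.63, once cells were thinned to equal depth. Hspa1b in astrocytes had a ratio of 1.39 (1.12 to 1.73). With the cluster mix made equal, the astrocyte log2 ratio was 0.39 for Hspa1a and 0.49 for Hspa1b. Only astrocyte clusters 0 and 1 had enough UMIs of the pair, and each interval there included 1. The Hspa1a ratio was 1.32 (0.761 to 2.44) in cluster 0 and 1.32 (0.817 to 2.10) in cluster 1. The Hspa1b ratio was 1.33 (0.855 to 2.16) in cluster 0 and 1.17 (0.806 to 1.69), under 1.2-fold, in cluster 1. In microglia the ratio was 0.701 (0.570 to 0.861) for Hspa1a and 0.656 (0.554 to 0.776) for Hspa1b, and in endothelial cells 0.662 (0.409 to 1.06) for Hspa1a and 0.495 (0.316 to 0.763) for Hspa1b. Endothelial Hspa1a missed the 1.2-fold bound, at a log2 ratio of -0.26, when each cell was weighed the same. Microglia with Ccl3 and Ccl4 above 1000 CPM, chemokines of activated microglia, had less of the pair than the other microglia: Hspa1a stood at 13.6 CPM in KO and 73.2 CPM in WT, on 4 KO and 28 WT UMIs, and Hspa1b at 13.6 CPM in KO and 94.1 CPM in WT, on 4 KO and 36 WT UMIs. The other microglia had 138 CPM of Hspa1a in KO and 191 CPM in WT, and 201 CPM of Hspa1b in KO and 301 CPM in WT, so the KO level was the lower one on both sides of that split. The summed immediate early list, a mark of dissociation in microglia, was 21192 CPM in KO and 24522 CPM in WT microglia. Of its 14 genes, 6 were at least 1.2-fold lower in KO (all genes 27.5%) and 1 higher (23.5%). In endothelial cells, where the pair was also lower in KO, the sum was 2500 CPM in KO and 2759 CPM in WT. Of 12 measured genes of the list there, 9 were at least 1.2-fold lower (all genes 26.6%) and 3 higher (23.6%), with a median log2 ratio of -0.36. The list's part in the pair's difference was not tested.

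**Figure D3:**
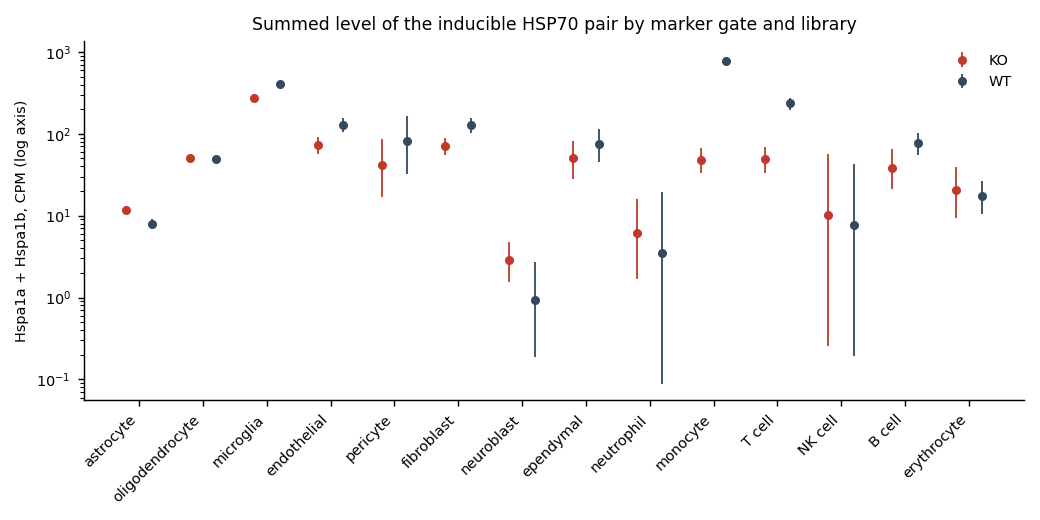
Summed level of Hspa1a and Hspa1b in CPM (log axis) in 14 marker gates, KO left in red and WT right in dark grey-blue, with exact Poisson 95% intervals. The KO point lies below the WT point in microglia, endothelial cells, fibroblasts, monocytes, T cells and B cells, and above it in astrocytes.

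Hspa8 (mm10, chr9:40800984-40810087, plus strand) encodes the constitutive cytosolic HSP70, which serves folding in unstressed cells and clathrin uncoating. It had the flattest map among the members: its highest and lowest levels in the 5 large gates were 1.49-fold apart in KO and 1.41-fold apart in WT. Neuroblasts (1411 CPM in KO, 1220 CPM in WT) and oligodendrocytes (1371 CPM in KO, 1213 CPM in WT) were on top and had overlapping intervals. Monocytes had 1422 CPM in KO and 1995 CPM in WT, and neutrophils 228 CPM in KO and 238 CPM in WT. The KO/WT ratio was 1.17 (1.15 to 1.19) in astrocytes, 1.13 (1.10 to 1.16) in oligodendrocytes, 1.16 (1.11 to 1.2) in neuroblasts, 1.15 (1.04 to 1.27) in endothelial cells and 0.905 (0.840 to 0.974) in microglia. None reached 1.2-fold.

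Hsp90aa1 (chr12:110690605-110702728, minus strand) and Hsp90ab1 (chr17:45567775-45573271, minus strand) encode the stress-responsive and the constitutive cytosolic HSP90, whose coding parts matched at 75.9% of bases. Ependymal cells, which carry motile cilia, had by far the most Hsp90aa1, 10997 CPM in 25 KO cells and 9600 CPM in 18 WT cells, and also led for Hsp90ab1 with 5476 CPM in KO and 5114 CPM in WT. Oligodendrocytes came next in both libraries, with Hsp90aa1 at 2883 CPM in KO and 3142 CPM in WT and Hsp90ab1 at 3168 CPM in KO and 3199 CPM in WT. The balance of both genes differed between cell types and within them: Hsp90aa1 molecules per Hsp90ab1 molecule were 2.01 in KO and 1.88 in WT ependymal cells, 0.910 in KO and 0.982 in WT oligodendrocytes, 0.784 in KO and 0.756 in WT neuroblasts, 0.355 in KO and 0.384 in WT astrocytes, and 0.186 in KO and 0.188 in WT endothelial cells. The libraries lay further apart in pericytes (0.394 in KO, 0.674 in WT) and neutrophils (0.615 in KO, 1.05 in WT), on few cells and with overlapping intervals. These were 0.304 to 0.509 in KO and 0.475 to 0.952 in WT pericytes. In neutrophils they were 0.462 to 0.814 in KO and 0.665 to 1.66 in WT. Oligodendrocytes with a Klk6 UMI had less Hsp90aa1 (2126 CPM in KO, 2577 CPM in WT) than those without (3054 CPM in KO, 3277 CPM in WT). Dividing neuroblasts, with a Top2a or Mki67 UMI, had more (2287 CPM in KO, 1953 CPM in WT) than the other neuroblasts (1334 CPM in KO, 1218 CPM in WT), while their Hsp90ab1 was level (2549 CPM in KO and 2297 CPM in WT, against 2594 CPM in KO and 2296 CPM in WT). This split also differs in depth, with a median of 18885.5 UMIs in dividing and 6911 in other KO neuroblasts. The part of depth in it was not tested.

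In KO against WT, Hsp90ab1 had a ratio of 1.31 (1.28 to 1.33) in astrocytes and 1.22 (1.14 to 1.3) in microglia, 1.13 (1.05 to 1.21) in endothelial cells, 1.12 (1.08 to 1.15) in neuroblasts and 0.990 (0.975 to 1.01) in oligodendrocytes. For Hsp90aa1 it was 1.21 (1.17 to 1.25) in astrocytes, 1.16 (1.12 to 1.2) in neuroblasts, 1.12 (0.949 to 1.32) in endothelial cells, 1.01 (0.893 to 1.14) in microglia and 0.918 (0.903 to 0.933) in oligodendrocytes. The astrocyte value of Hsp90aa1 lay just above the 1.2-fold bound, and its log2 ratio was 0.24, under it, with each cell weighed the same. With the mix of astrocyte clusters made equal in both libraries, the astrocyte log2 ratio was 0.09 for Hsp90aa1, against 0.27, and 0.16 for Hsp90ab1, against 0.39, both under 1.2-fold. Within the 5 astrocyte clusters Hsp90ab1 ran from 0.03 to 0.39 and was past 1.2-fold in 1, cluster 4, as was Hsp90aa1. Microglial Hsp90ab1 was at 0.24, against 0.29, once the trend with transcript length was taken out. Astrocytes with a Gfap UMI, a gene of reactive astrocytes, had Hsp90ab1 at 877 CPM in KO and 653 CPM in WT, and those without at 738 CPM in KO and 569 CPM in WT, so the KO level was the higher one on both sides.

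Hsph1 (chr5:149614287-149636376, minus strand) encodes HSP110, an exchange factor of HSP70, and Dnajb1 (chr8:83608193-83612653, plus strand) a J-domain partner that delivers clients to it. As for Hsp90aa1, ependymal cells had the most Hsph1: 713 CPM in KO and 967 CPM in WT, oligodendrocytes 120 CPM in KO and 118 CPM in WT, neuroblasts 104 CPM in KO and 120 CPM in WT, astrocytes 29.3 CPM in KO and 38.5 CPM in WT, and microglia 34.6 CPM in KO and 31.9 CPM in WT. In astrocytes Hsph1 was the single member past the bound downward, with a ratio of 0.761 (0.697 to 0.831). Its log2 ratio there was -0.39, and -0.23, no longer past 1.2-fold, relative to genes of like transcript length. With the cluster mix made equal it was -0.41, and it was past 1.2-fold downward in 3 of 4 clusters with enough UMIs. In neuroblasts the ratio was 0.865 (0.757 to 0.989). Dnajb1 was highest in microglia among the large gates, at 69.2 CPM in KO and 86.2 CPM in WT (in KO its interval overlapped those of neuroblasts and endothelial cells), and lowest in astrocytes, at 14.5 CPM in KO and 13.7 CPM in WT. A Dnajb1 UMI was seen in 20.1% of KO and 30.5% of WT microglia. In oligodendrocytes it stood at 28.7 CPM in KO and 38.0 CPM in WT, a ratio of 0.754 (0.641 to 0.885), the only member past 1.2-fold in that type. Thinned to equal depth its log2 ratio was -0.20, against -0.41. Microglial Dnajb1 had a ratio of 0.803 (0.611 to 1.05) and neuroblast Dnajb1 of 1.2 (0.977 to 1.48), both with intervals that include 1. The microglial log2 ratio was -0.21, against -0.32, without likely doublets, and the neuroblast one -0.055, against 0.27, with each cell weighed the same.

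Hspe1 and Hspd1 encode the mitochondrial HSP10 lid and HSP60 ring and are read in opposite directions from neighbouring starts (mm10, chr1:55088132-55091307, plus strand, and chr1:55077835-55088243, minus strand). Their annotated 5′ ends overlap, and no source used here says whether counting used the strand. Both were highest in ependymal cells, Hspe1 at 924 CPM in KO and 888 CPM in WT and Hspd1 at 425 CPM in KO and 519 CPM in WT. Neuroblasts led the 5 large gates for both, with Hspe1 at 389 CPM in KO and 271 CPM in WT and Hspd1 at 320 CPM in KO and 261 CPM in WT. T cells had as much Hspe1 as neuroblasts or more in WT (348 CPM in KO, 365 CPM in WT). Neutrophils were lowest, with 13 KO and 7 WT UMIs of Hspe1 and 5 KO and 7 WT UMIs of Hspd1. The balance of both genes differed between types. Hspe1 molecules per Hspd1 molecule were 2.45 in KO and 1.86 in WT astrocytes, 1.98 in KO and 1.61 in WT microglia, 1.18 in KO and 1.01 in WT oligodendrocytes, and 3.42 in KO and 4.02 in WT B cells. The transcripts differ in length, 774 bases for Hspe1 and 2423 for Hspd1, and the part of length in this balance was not tested.

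Hspe1 had KO/WT ratios above 1 in all 5 large gates: 1.34 (1.3 to 1.39) in astrocytes, 1.44 (1.33 to 1.56) in neuroblasts, 1.5 (1.14 to 1.98) in endothelial cells, 1.32 (1.12 to 1.55) in microglia and 1.12 (1.06 to 1.19) in oligodendrocytes. Its transcript is short, 774 bases, and short transcripts as a whole had higher KO/WT ratios. The rank correlation of the log2 ratio with transcript length over genes ran from -0.54 in neuroblasts to -0.46 in endothelial cells, as a description over genes that share the same 2 libraries. Relative to genes of like length its log2 ratio was 0.10 in astrocytes, against 0.43, 0.07 in microglia, against 0.40, 0.29 in neuroblasts, against 0.53, 0.31 in endothelial cells, against 0.59, and -0.015 in oligodendrocytes, against 0.17. With the cluster mix made equal it was 0.18 in astrocytes, under 1.2-fold, and within the 5 astrocyte clusters it ran from 0.09 to 0.67, past 1.2-fold in 2. Hspd1, with 2423 bases, had a ratio of 1.02 (0.975 to 1.07) in astrocytes, 1.23 (1.13 to 1.34) in neuroblasts and 1.3 (0.973 to 1.75) in endothelial cells. With clusters in place of gates its neuroblast log2 ratio was 0.13, against 0.30, and the endothelial log2 ratios of Hspd1 and Hspe1 were 0.24 and 0.26, just under 1.2-fold. In dividing neuroblasts Hspe1 was at 443 CPM (421 to 465) in KO and 286 CPM (265 to 309) in WT, and in the other neuroblasts at 260 CPM (234 to 288) in KO and 233 CPM (203 to 265) in WT. The part of depth, which differs across this split, was not tested.

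Hspb1 (chr5:135887919-135889563, plus strand) encodes a small heat shock protein that binds unfolded clients and actin. It was a gene of vessels and their surroundings: endothelial cells had 1573 CPM in KO and 1145 CPM in WT, pericytes 783 CPM in KO and 497 CPM in WT, fibroblasts 490 CPM in KO and 450 CPM in WT, and ependymal cells 141 CPM in KO and 101 CPM in WT. In ependymal cells 1 cell per library held 20 of 42 KO and 17 of 27 WT UMIs, and without it the levels were 77.8 CPM in KO and 41.1 CPM in WT. A UMI was seen in 86.5% of endothelial cells of either library but in 1.25% of KO and 1.62% of WT astrocytes, at median depths of 2749 UMIs in KO and 4126 in WT endothelial cells and 8985 in KO and 12185 in WT astrocytes. T cells had none in either library, which allows up to 4.87 CPM in KO and 5.14 CPM in WT. In endothelial cells the KO/WT ratio was 1.37 (1.27 to 1.49), and in pericytes 1.58 (1.11 to 2.28) on 131 KO and 43 WT UMIs. Its endothelial log2 ratio of 0.46 was 0.19 with clusters in place of gates and 0.21 relative to genes of like transcript length. The pericyte log2 ratio of 0.66 was also 0.21 relative to genes of like length, under 1.2-fold. Microglia had 2 KO UMIs and 30 WT UMIs, of which 16 were in 1 WT cell, so no ratio is given.

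**Figure D4:**
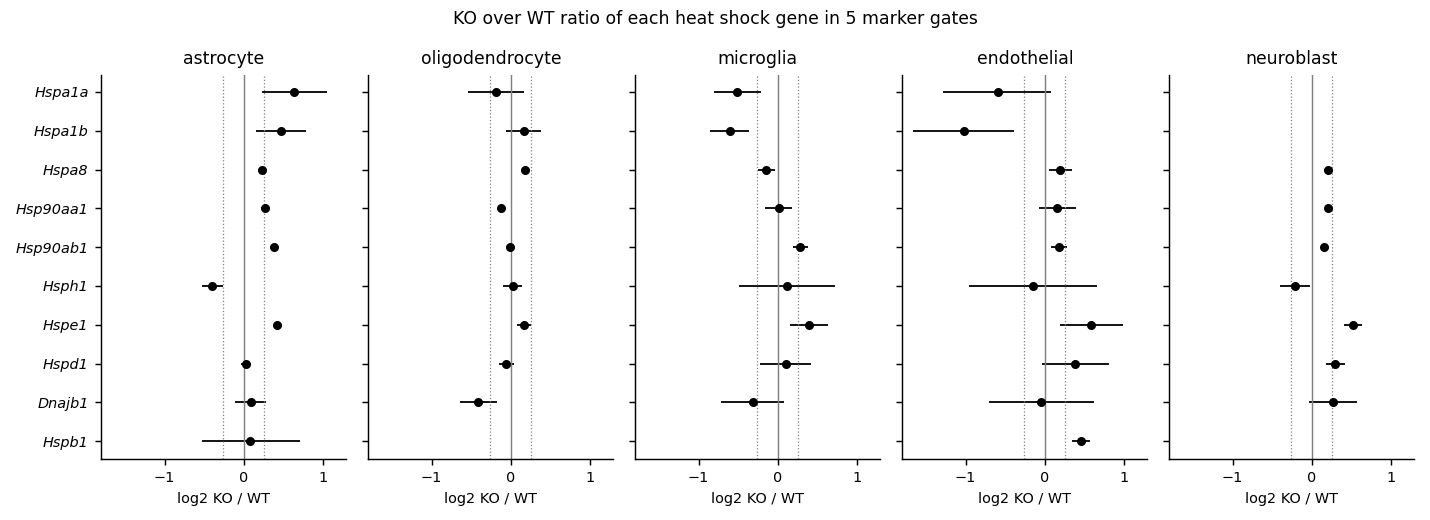
Log2 KO/WT ratio of each heat shock gene in 5 marker gates, with exact conditional binomial 95% intervals that cover counting error only; dotted lines mark 1.2-fold and genes with under 50 UMIs over both libraries are left out. Hspe1 lies right of 0 in all 5 gates, and the inducible pair lies right in astrocytes and left in microglia and endothelial cells.

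Counted over the members, KO against WT at 1.2-fold and at least 50 UMIs, astrocytes had 5 of 10 measured members higher (Hspa1a, Hspa1b, Hsp90aa1, Hsp90ab1 and Hspe1), where 19.6% of all 13399 genes were higher, and 1 lower (Hsph1), where 33.5% were lower. With the mix of astrocyte clusters made equal, 3 were higher (Hspa1a, Hspa1b and Hspb1) and 1 lower, so the calls of Hsp90aa1, Hsp90ab1 and Hspe1 ended. Hspb1 had only 61 KO and 37 WT UMIs in the astrocyte gate. Its log2 ratio was 0.41 with the equal mix and -0.58 with clusters in place of gates. Neuroblasts had 3 of 7 higher (Hspe1, Hspd1 and Dnajb1; all genes 15.8%) and 0 lower (33.0%). Endothelial cells had 3 of 10 higher (Hspe1, Hspd1 and Hspb1; 23.6%) and 2 lower (Hspa1a and Hspa1b; 26.6%), near the shares of all genes. Microglia had 2 of 9 higher (Hsp90ab1 and Hspe1; 23.5%) and 3 lower (Hspa1a, Hspa1b and Dnajb1; 27.5%), also near them. Oligodendrocytes had 0 of 9 higher (13.4%) and 1 lower (Dnajb1; 26.3%). The median log2 ratio of the measured members against all genes was 0.25 against -0.10 in astrocytes, 0.21 against -0.09 in neuroblasts, 0.17 against -0.02 in endothelial cells, 0.01 against -0.02 in microglia and -0.01 against -0.07 in oligodendrocytes. A trimmed-mean scaling shifts all log2 ratios up by 0.13 in astrocytes and 0.12 in neuroblasts. At a fold of 1.5, astrocytes had 1 member higher (Hspa1a; all genes 3.16%) and 0 lower (8.87%), and endothelial cells 1 higher (Hspe1; 6.08%) and 2 lower (the inducible pair; 7.25%). Microglia had 0 higher (5.77%) and 1 lower (Hspa1b; 7.72%), oligodendrocytes 0 higher (3.38%) and 0 lower (5.52%), and neuroblasts 0 higher (2.37%) and 0 lower (9.82%).

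Other chaperone genes, from lists chosen with earlier results of these data known, gave a mixed picture in astrocytes, where 19.6% of all genes were at least 1.2-fold higher in KO and 33.5% lower. Of 7 measured genes listed around HSF1, heat shock factors and partners of HSP70 among them, 3 were at least 1.2-fold higher in KO and 0 lower (median log2 ratio 0.15). Among them Hspbp1, a nucleotide exchange factor of HSP70, had 19.9 CPM in KO and 14.9 CPM in WT, and the HSF1-binding Hsbp1 171 CPM in KO and 135 CPM in WT, while Hsf2 was at 42.3 CPM in KO and 45.6 CPM in WT. Of 22 cochaperones and other heat-inducible genes, 6 were higher and 2 lower (median 0.14). The ubiquitin gene Ubb (1209 CPM in KO, 833 CPM in WT) was among the higher ones, as was Fkbp5, an HSP90 cochaperone that glucocorticoids induce, with 11.1 CPM in KO and 4.65 CPM in WT. The HSP110 relatives Hspa4l (114 CPM in KO, 146 CPM in WT) and Hspa4 (55.0 CPM in KO, 66.9 CPM in WT) had ratios below 1, as Hsph1 did. Of 4 measured small heat shock genes besides Hspb1, 1 was higher, Hspb8 with 49.4 CPM in KO and 33.2 CPM in WT, and Cryab had 158 CPM in KO and 138 CPM in WT. Of 14 mitochondrial chaperones and proteases, 3 were higher and 2 lower (median -0.04). The protease subunit Clpp had 116 CPM in KO and 84.7 CPM in WT, the import motor part Timm44 58.5 CPM in KO and 87.5 CPM in WT, and the mitochondrial HSP70 gene Hspa9 99.3 CPM in KO and 99.5 CPM in WT.

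The cytosolic chaperonin and prefoldin, which fold actin and tubulin, had mostly higher members in KO astrocytes and microglia; the part of transcript length in this was not tested. In astrocytes 10 of 14 were at least 1.2-fold higher in KO (all genes 19.6%) and 1 lower (33.5%), with a median log2 ratio of 0.30. Pfdn4 had 46.0 CPM in KO and 31.5 CPM in WT, Pfdn5 179 CPM in KO and 129 CPM in WT, and Tcp1 85.4 CPM in KO and 108 CPM in WT. In microglia 11 of 14 were higher and 0 lower (median 0.45), where 23.5% of all genes were higher. There were 4 of 14 higher in endothelial cells (all genes 23.6%), 4 of 14 in neuroblasts (15.8%) and 3 of 14 in oligodendrocytes (13.4%), and the difference between types was not tested. Of 13 measured immediate early genes in astrocytes, 3 were higher (all genes 19.6%) and 5 lower (33.5%), with a median of 0.09. Jun was at 120 CPM in KO and 149 CPM in WT and Jund at 169 CPM in KO and 148 CPM in WT.

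Likeness of pattern was measured as Pearson's r of log2(CPM + 10) over 16 points, 8 gates in 2 libraries, among 7932 genes, as a description of points that share libraries and depth. Within the members, Hspa1a and Hspa1b were each other's nearest gene (0.95). Hsph1 lay close to Hspd1 (0.90) and Hsp90aa1 (0.89), while the neighbours Hspe1 and Hspd1 had an r of 0.47, and Hspe1 and Hspb1 one of -0.66. The nearest genes outside were Csf2rb for Hspa1a (0.92) and Tln1 for Hspa1b (0.91), Srp19 and Ndfip1 for Hspa8 (0.95 each), Parm1 and St18 for Hsp90aa1 (0.97 each) and Ubxn1 and Ctr9 for Hsp90ab1 (0.94 each). Kif3c (0.95) and Fbxo21 (0.94) were nearest to Hsph1, Atic (0.92) and Mettl23 (0.89) to Hspe1, Stip1 (0.96) and Adh5 (0.95) to Hspd1, Commd7 (0.95) and Cebpz (0.91) to Dnajb1, and Egfl7 and Slc22a8 (0.99 each) to Hspb1.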

How the data were processed

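The 2 libraries were 10x Genomics 3′ v3.1 single-cell libraries. Values are raw counts of UMIs, deposited by the authors for every gene in every barcode. Cell Ranger 4.0.0 wrote them, per the file headers. The build was mm10, per the submitters' processing notes, which also name Seurat 3.0 and R 4.0.3. How reads matching several genes were handled was not given in the sources used here. No depth correction precedes these counts, and the KO library has fewer UMIs per cell in most gates, which moves any share of cells with a UMI.

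Barcodes stayed in if they showed 500 genes or more and no more than 20% mitochondrial UMIs. Each cell was scored for 19 lists of markers, each marker scaled to its 90th percentile, and gated where the best score was at least 0.3, at least 3 markers were seen and the next score, leaving out erythrocytes, was at most 0.5 of the best. This scoring rule, the neuroblast gate, the removal of the length trend, the other gate limits and the equal cluster mix (levels of clusters with at least 20 cells per library, weighed the same in both) were set after seeing the data. Doublets were met by the last limit; Scrublet in scanpy 1.11.5 marked 4 KO and 0 WT cells on its own and was taken as failed, so an alternative left out its 569 KO and 298 WT highest scores. UMIs were summed per gate and divided by the gate's total, with exact Poisson intervals for levels, exact binomial intervals for shares and exact conditional binomial intervals for ratios (scipy 1.17.1, Python 3.11.15). The intervals cover counting error only, UMIs being counted once per molecule. A gene was counted as higher or lower at 1.2-fold with at least 50 UMIs over both libraries. The ratio code was tested on simulated data. Promoters came from RefSeq (GRCm38.p6), and positions and transcript lengths from GENCODE by gene identifier, matching 99.8% of 32285 genes.

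The members and lists were chosen with earlier results of these data known. The genes named are the 10 members, in each list the 2 highest and 2 lowest KO/WT ratios and the 2 most abundant genes in astrocytes, of which a part is printed, and the 2 genes most like each member. Alternatives were other cell filters, doublet removal, clusters, each cell weighed the same, thinning to 2000 UMIs, trimmed-mean scaling, removal of the trend with transcript length, an equal cluster mix, other limits of the gate and a fold of 1.5.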

Additional observations from a re-analysis of the deposited data

Results flagged for a closer look

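The inducible pair had KO/WT ratios that pointed opposite ways between cell types. The log2 ratio of Hspa1a was 0.63 in astrocytes and -0.51 in microglia. Its astrocyte value was 0.08 once cells were thinned to equal depth. For Hspa1b the log2 ratio was 0.47 in astrocytes, -0.61 in microglia and -1.02 in endothelial cells. Within the astrocyte clusters that had enough UMIs, the ratio intervals of Hspa1a and of Hspa1b included 1. Each value comes from 1 KO and 1 WT library, and the difference between types was not tested.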

How the results depend on the processing

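Of 487 values of single members under 11 alternatives, 25 changed sign; 24 of these were of members not past 1.2-fold. Among 217 values of members past 1.2-fold, 216 kept their sign and 189 stayed past it. The exception was Dnajb1 in neuroblasts, with a log2 ratio of -0.055 with each cell weighed the same, against 0.27. With a fold of 1.5, astrocytes had 1 higher and 0 lower, oligodendrocytes 0 lower, microglia 0 higher and 1 lower, endothelial cells 1 higher and neuroblasts 0 higher. With clusters in place of gates, astrocytes had 2 lower, endothelial cells 0 higher and neuroblasts 1 higher. Thinned to one depth, astrocytes had 2 lower, oligodendrocytes 1 higher and 0 lower, microglia 1 higher, endothelial cells 0 lower, where fewer genes reach 50 UMIs, and neuroblasts 1 lower. With the transcript-length trend removed, astrocytes had 0 lower and microglia 0 higher. With each cell weighed the same, microglia and neuroblasts had 1 higher each, and with trimmed-mean scaling neuroblasts had 6 higher. With the cluster mix made equal, astrocytes had 3 higher. A gate limit of 0.6 gave 2 lower in astrocytes, and one of 0.4 gave 1 lower in neuroblasts. Apart from the named construction, the cause was not tested. Gates of under 50 cells, such as ependymal cells and monocytes, rest on few cells and on 1 library each. No paired analysis was possible because there is 1 library per genotype.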
